A study of Mus musculus with 9 samples.

Results

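Tiam2, Lurap1l and 6 other genes around the small GTPase Rac (Tiam1, Rac1, Rac2, Vav1, Vav3 and Dock2) were followed in CD11b+ cells of mouse liver, 8 of the 45777 genes in the tables. Tiam2 and Lurap1l were chosen on their values, because they share the smallest adjusted p-value of the comparison of MSC-EV with PBS. The other 6 were chosen as known partners and regulators of Rac. Earlier results of these data were known at that choice, so tests of the 6 are not independent of it. All 8 passed the filter on low values, which kept 13820 genes. Mice of all 3 groups had received an overdose of acetaminophen (APAP), which injures the liver, and livers were taken 48 hours after it. The PBS group had only PBS beside APAP, the HEK-EV group received extracellular vesicles named SIRP-EV from the human kidney-derived line HEK, and the MSC-EV group received SIRP-EV made by MSC; vesicles were given 8 hours after APAP. Each group had 3 samples. The labels do not spell out SIRP or MSC, and mouse strain, sex and age, and whether samples came from single animals, are not given in the sources used here; no untreated liver is among the samples.

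Rac proteins switch between a GDP-bound resting form and a GTP-bound active form, and active Rac drives branched actin at the leading edge of moving or engulfing cells and the oxidant burst of phagocytes. Exchange factors turn Rac on, among them Tiam1 and Tiam2, the Vav proteins, which respond to tyrosine kinase signals, and Dock2, the leukocyte member of the DOCK family. GTPase-activating proteins turn Rac off, and GDI proteins hold it in the cytosol. Lurap1l, a leucine-rich adaptor protein, is no exchange factor. It is related to Lurap1, which links the kinase MRCK to myosin.

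The asked question was whether Tiam2 and Lurap1l fall alone. They did not move together: Tiam2 was lower in the MSC-EV group and Lurap1l was higher. Nor was Tiam2 alone in being lower. Tiam1 passed the test as lower against both other groups, Rac2 passed against HEK-EV, and all 6 other genes had lower mean values in MSC-EV than in either group, as 47.7% of all genes tested had against PBS and 53.8% against HEK-EV. The calls are near the threshold: that of Tiam1 against PBS was lost in 13 of 19 alternatives, and that of Rac2 against HEK-EV in 14 of 20.

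Tiam2 (gene ID 24001) lies on the plus strand of chromosome 17, from 3326313 to 3519397, and Lurap1l (gene ID 52829) on the plus strand of chromosome 4, from 80910686 to 80954301, on the files' build, mm10. The sequences before their annotated starts are shown because their levels moved in opposite directions, and a reader may wish to set the 2 promoters side by side. RefSeq (GRCm38.p6) holds 3 Tiam2 starts and 1 Lurap1l start; each line below is the 150 bases before a start, 5′ to 3′ on the plus strand, with matches to the motifs searched in capitals.
Tiam2 start 1, chr17:3397057-3397206: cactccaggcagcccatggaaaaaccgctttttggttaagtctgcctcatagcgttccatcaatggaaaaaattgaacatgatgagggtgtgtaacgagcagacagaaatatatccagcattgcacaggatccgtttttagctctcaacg
Tiam2 start 2, chr17:3482165-3482314: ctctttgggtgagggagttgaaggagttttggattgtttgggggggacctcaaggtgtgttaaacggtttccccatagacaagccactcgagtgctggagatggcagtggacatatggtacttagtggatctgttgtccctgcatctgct
Tiam2 start 3, chr17:3483340-3483489: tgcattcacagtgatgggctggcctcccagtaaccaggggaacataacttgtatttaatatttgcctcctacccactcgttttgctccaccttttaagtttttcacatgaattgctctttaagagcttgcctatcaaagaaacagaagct
Lurap1l start, chr4:80910536-80910685: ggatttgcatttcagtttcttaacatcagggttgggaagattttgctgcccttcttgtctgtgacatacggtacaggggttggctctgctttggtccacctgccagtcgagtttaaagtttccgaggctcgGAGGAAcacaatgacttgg
The 3 Tiam2 starts lie inside the gene's span given above, so none of the windows precedes its first base, while the Lurap1l window ends at the base before its span. The gene tables do not tell which Tiam2 start was used.

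Of 7 motifs searched on both strands, 1 was found. The capitals in Lurap1l mark GAGGAA, the core bound by PU.1, the myeloid factor encoded by Spi1, which 14.5% of 32851 RefSeq promoters hold in the same 150 bases. The box motif of GC-rich promoters, GGGCGG, is held by 28.6% of promoters. The motif of the factor NF-Y, CCAAT, is held by 24.5%. The core promoter motif TATAAA is held by 7.57%. The E-box searched, CACGTG, is held by 4.3%. The AP-1 site searched, TGAGTCA, is held by 2.84%, and the cyclic AMP response element, TGACGTCA, by 1.36%. The E-box and the cyclic AMP response element read the same on both strands, and no motif lies within another. The Tiam2 windows were 44.7%, 50.7% and 42% GC with 5, 2 and 1 CpG, and the Lurap1l window 48.7% with 4, against medians of 54% and 4 over all promoters. A match describes these letters only, and the data hold no measure of binding.

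Levels are transcripts per 1000000 (TPM), and differences are of log2(TPM + 1), which understates the change of genes with low levels. Tiam2 was at 10.2, 12 and 15.4 TPM in PBS replicates 1 to 3, at 10.4, 10.4 and 11.6 TPM in the HEK-EV samples, and at 4.07, 3.19 and 3.15 TPM in the MSC-EV samples. All MSC-EV samples lay below all others, while PBS and HEK-EV overlapped. The means were 12.5 ± 2.6, 10.8 ± 0.667 and 3.47 ± 0.522 TPM (SD, n = 3 each), so that the PBS mean was 3.61 times the MSC-EV mean. On the log2 scale MSC-EV minus PBS was -1.59 (SE 0.143, 95% interval -1.91 to -1.27) and MSC-EV minus HEK-EV was -1.41 (-1.73 to -1.09). HEK-EV minus PBS was -0.18, with an interval of -0.50 to 0.14. These comparisons share samples with the one that chose the gene, so they are descriptions and carry no test. Counted in order of level, PBS and HEK-EV were neighbours that did not differ beyond their spread, and MSC-EV was lowest.

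Lurap1l was at 0.857, 0.891 and 0.998 TPM in the PBS samples, 1.31, 1.56 and 1.76 TPM in HEK-EV and 3.91, 5.44 and 4.32 TPM in MSC-EV. None of the 3 groups overlapped another, with HEK-EV in between. The means were 0.915 ± 0.0734, 1.55 ± 0.227 and 4.56 ± 0.795 TPM (SD, n = 3 each), and the MSC-EV mean was 4.98 times the PBS mean. MSC-EV minus PBS was 1.53 (SE 0.135, interval 1.22 to 1.83), MSC-EV minus HEK-EV 1.12 (0.82 to 1.42) and HEK-EV minus PBS 0.41 (0.10 to 0.71). All PBS values are under 1 TPM, so the gene passed the filter on low values only through the vesicle groups, and these values too are a description.

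Samples stand apart in transcripts of pancreatic acinar cells. Their summed level over 20 genes was 27.9 and 1038 TPM in HEK-EV replicates 1 and 2 and 122 and 2979 TPM in MSC-EV replicates 1 and 3, while the 3 PBS samples, HEK-EV replicate 3 and MSC-EV replicate 2 were at 1.3 to 2.16 TPM. The MSC-EV sample without these transcripts, replicate 2, had Tiam2 at 3.19 TPM and Lurap1l at 5.44 TPM, on the same side of PBS as the other 2. Without the 2 samples highest in acinar transcripts, a comparison added after seeing the data, MSC-EV minus PBS was -1.54 for Tiam2 and 1.55 for Lurap1l. The side with acinar transcripts holds 2 HEK-EV and 2 MSC-EV samples; within it MSC-EV minus HEK-EV was -1.32 for Tiam2 and 1.07 for Lurap1l. On the other side, where MSC-EV and HEK-EV have 1 sample each and are assumed to vary like PBS, MSC-EV minus PBS was -1.67 for Tiam2 and 1.75 for Lurap1l. These comparisons within a side were also added after seeing the data. Both genes were chosen on their values, so the kept direction is a description.

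**Figure D1:**
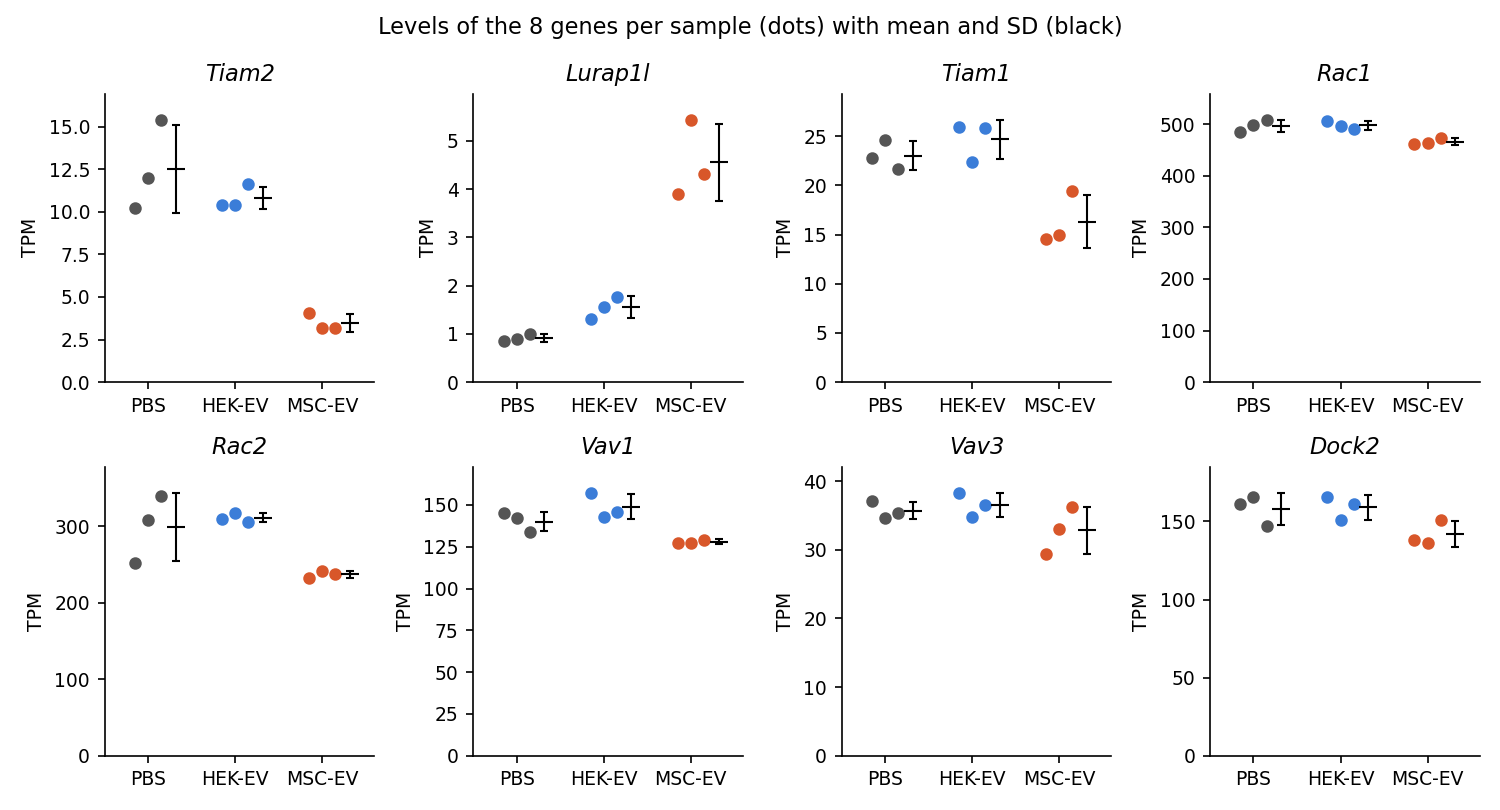
Level in TPM (vertical axis, from 0) of the 8 genes in each of the 9 samples (dots; grey PBS, blue HEK-EV, orange MSC-EV), with mean and SD in black. Tiam2 sits at 3.15 to 4.07 TPM in MSC-EV against 10.2 or more elsewhere, and Lurap1l is highest in MSC-EV, at 3.91 to 5.44 TPM.

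By the rule of smallest p in MSC-EV against PBS, Klf4, a transcription factor, ranked above Lurap1l, and Tiam2 came next, all 3 with an adjusted p of 0.00486. Klf4 was at 105 ± 4.16 TPM in PBS and 45.3 ± 7.25 in MSC-EV (log2 -1.21). Just outside the choice were Tm4sf4, an epithelial membrane protein, at 3.65 ± 0.505 and 13 ± 3.07 TPM (1.57), Clu, a secreted chaperone, at 46.8 ± 5.66 and 136 ± 20.3 TPM (1.51), and Prom1, an epithelial progenitor and bile duct marker, at 0.438 ± 0.102 and 2.83 ± 0.296 TPM (1.41). These ranks are descriptions of the choice.

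Tiam1, the close relative of Tiam2, was at 22.8, 24.6 and 21.7 TPM in PBS, 25.9, 22.4 and 25.8 TPM in HEK-EV and 14.5, 15 and 19.4 TPM in MSC-EV. All MSC-EV values lay below all others. It fell against PBS by 0.48 on the log2 scale (SE 0.112, interval -0.73 to -0.23; limma, Benjamini-Hochberg adjusted p = 0.0441) and against HEK-EV by 0.58 (SE 0.112, adjusted p = 0.0263). HEK-EV minus PBS was 0.10 (-0.16 to 0.35, adjusted p = 0.999). Across 19 alternatives the log2 difference from PBS ran from -0.61 to -0.41 and the limma adjusted p from 0.025 to 0.178, with 13 alternatives short of the threshold, in 1 of which no gene of the whole table passed. Among the 13 are the fits that left out PBS replicate 2 (limma adjusted p = 0.178) or 3 (0.104) or MSC-EV replicate 1 (0.162) or 2 (0.139). The fits without HEK-EV replicate 1, 2 or 3 also fell short (0.0558, 0.0603 and 0.0566). Against HEK-EV the log2 difference ran from -0.77 to -0.48 over 20 alternatives. Of these, 8 fell short, with limma adjusted p up to 0.164, and in 4 of the 8 no gene of the whole table passed. Of the 8, 7 came from dropping HEK-EV replicates 1, 2 or 3 (0.0776, 0.0549 and 0.0771), MSC-EV replicates 1 or 2 (0.107 and 0.0885), the 2 samples highest in acinar transcripts (0.0641) and the filter on low values (0.0545). The acinar split as a term gave -0.50 against PBS (limma adjusted p = 0.152). Within the side with acinar transcripts the difference from HEK-EV was -0.49 (adjusted p = 0.164). Within the other side, where MSC-EV and HEK-EV have 1 sample each and no gene of the whole table passed, the differences were -0.74 from HEK-EV and -0.58 from PBS; that fit is left out of these counts for Tiam1 and Rac2.

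The share of Tiam2 in the summed Tiam1 and Tiam2 level, which is per length, was 31%, 32.9% and 41.4% in PBS, 28.7%, 31.7% and 31% in HEK-EV and 21.9%, 17.6% and 13.9% in MSC-EV. The 3 lowest shares were those of the MSC-EV samples. The means were 35.1 ± 5.58%, 30.5 ± 1.56% and 17.8 ± 3.99% (SD, n = 3 each). Since Tiam2 was chosen for its low values in MSC-EV, no test was made.

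Rac2, the Rac of blood cells, was at 252, 308 and 339 TPM in PBS, 310, 317 and 306 TPM in HEK-EV and 232, 241 and 238 TPM in MSC-EV, with every MSC-EV value below every other. It fell against HEK-EV by 0.39 (SE 0.0933, interval -0.60 to -0.18; limma adjusted p = 0.0433). Against PBS the difference was -0.33 (-0.53 to -0.12, adjusted p = 0.076, not past the threshold); without PBS replicate 1, the lowest PBS sample, it was -0.44 (adjusted p = 0.00285). With depth as a covariate it was -0.63 (limma adjusted p = 0.00504). The measure of depth was higher in every MSC-EV sample than in any other, so that fit cannot tell depth and group apart well. Against PBS the same fit gave -0.43 for Tiam1 (limma adjusted p = 0.17, not past the threshold). It gave -0.13 for Rac1, -0.04 for Vav1, -0.06 for Vav3 and -0.06 for Dock2. The Rac2 call against HEK-EV was lost in 14 of 20 alternatives, over which limma adjusted p ran from 0.00323 to 0.161, and in 4 of the 14 no gene of the whole table passed. Over these 20 the Rac2 difference from HEK-EV ran from -0.52 to -0.32. Within the side with acinar transcripts it was -0.41 (limma adjusted p = 0.0501), and within the other the difference was -0.34. Among the losses were PBS replicate 2 (0.0598), HEK-EV replicates 1 to 3 (0.106, 0.109 and 0.0992) and MSC-EV replicates 1 to 3 (0.148, 0.116 and 0.0774), each left out in turn, as limma adjusted p.

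Rac1, the Rac found in most cells, was at 485, 499 and 508 TPM in PBS, 507, 496 and 490 TPM in HEK-EV and 462, 463 and 474 TPM in MSC-EV. Its MSC-EV values lay below all others, but the difference from PBS was -0.09 (-0.20 to 0.01, limma adjusted p = 0.268). Its difference from HEK-EV was -0.09 (adjusted p = 0.26), and HEK-EV minus PBS was 0.00 (-0.10 to 0.10).

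Vav1, the Vav protein of blood cells, was at 145, 142 and 134 TPM in PBS, 157, 143 and 146 TPM in HEK-EV and 127, 127 and 129 TPM in MSC-EV. Every MSC-EV value was below every other, with a difference from PBS of -0.13 (-0.25 to -0.01, limma adjusted p = 0.191) and from HEK-EV of -0.22 (-0.34 to -0.09, adjusted p = 0.0501), just short of the threshold. It passed without PBS replicate 1 (limma adjusted p = 0.037) and at a minimum of 5 TPM (0.0484).

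Vav3 overlapped between all groups, at 34.6 to 37.1 TPM in PBS, 34.8 to 38.2 in HEK-EV and 29.3 to 36.2 in MSC-EV, with a difference from PBS of -0.12 (-0.30 to 0.06, limma adjusted p = 0.415). Dock2 was at 161, 166 and 147 TPM in PBS, 166, 151 and 161 in HEK-EV and 138, 136 and 151 in MSC-EV. Its groups overlapped through MSC-EV replicate 3, and the difference from PBS was -0.16 (-0.31 to -0.00, limma adjusted p = 0.207).

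Of the 6 genes, 1 passed in MSC-EV against PBS, where 5.11% of all genes tested passed and 3.25% passed as lower. Against HEK-EV 2 of 6 passed, both lower, against 5.91% of all genes, 4.4% as lower. All 3 MSC-EV values lay below all PBS values for 4 of the 6, where 14.9% of all genes did so, and below all HEK-EV values for 4 of the 6, against 17.5%. The median log2 differences of the 6 were -0.14 and -0.19, against 0.01 and -0.02 over all genes. In HEK-EV against PBS none of the 6 passed, and 0% of genes passed by limma (495 had an unadjusted p under 0.05, smallest adjusted p 0.944). Both comparisons with MSC-EV use the same 3 samples and so are not separate evidence. The 6 were also chosen with earlier results of these data known. The share of higher genes among all called against PBS was 36.4% on TPM, but 47.2% after median-of-ratios scaling of TPM and 63.1% when FPKM replaced TPM. Against HEK-EV it was 25.6%, 46.3% and 59.5%, respectively.

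**Figure D2:**
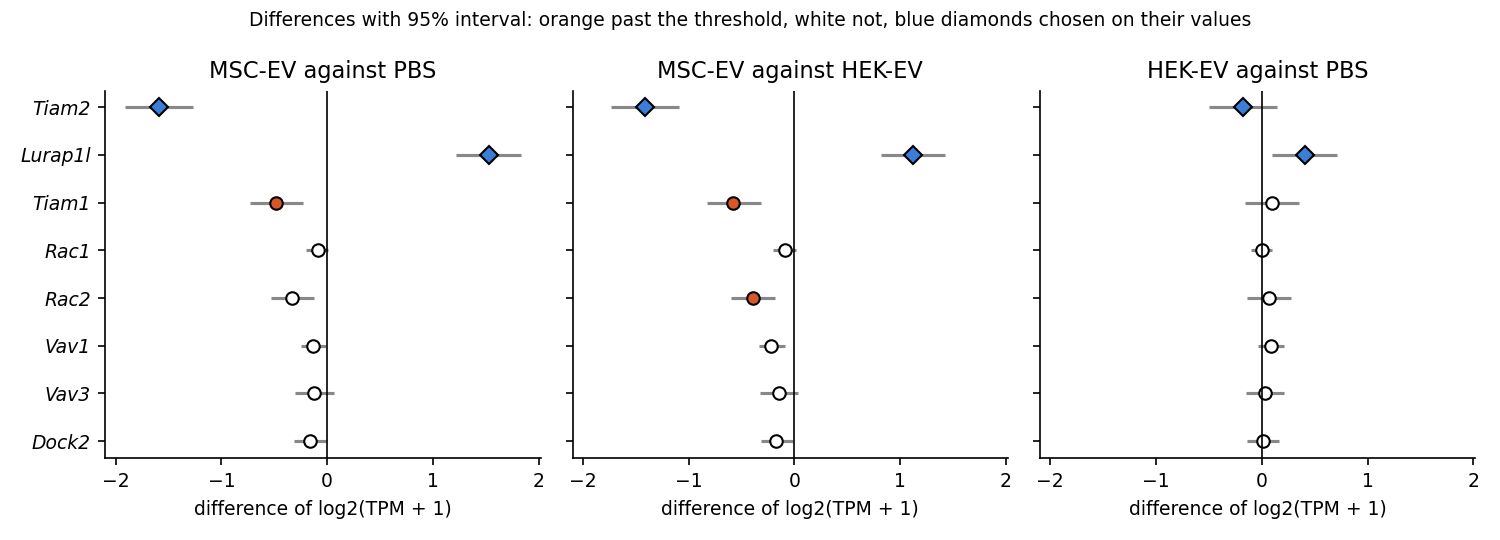
Differences of log2(TPM + 1) with 95% intervals for the 8 genes in 3 comparisons (horizontal axis). Orange points passed the limma threshold, white ones did not, and blue diamonds were chosen on their values and not tested: Tiam2 at -1.59 and Lurap1l at 1.53 against PBS lie on opposite sides of 0.

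The wider Rac pathway was read from 7 lists with 97 genes besides Tiam2 and Lurap1l, of which 89 passed the filter. Against PBS 9 of them passed, 7 lower and 2 higher, which is 10.1% against 5.11% of all genes; 67 of 89 had lower means and the median was -0.12, against 0.01 over all genes. Against HEK-EV 9 passed, all lower (10.1%, against 4.4% of all genes as lower and 5.91% in either direction), with a median of -0.15 against -0.02 over all genes. Both counts rest on the same 3 MSC-EV samples, and the lists were chosen with earlier results of these data known. The counts changed between fits, as did the number of genes called in the whole table. That number is given in brackets, as a share or a number of all genes in the same fit. Against PBS the lists gave 20 of 89 without PBS replicate 1 (22.5%, against 13.7%), 15 with depth as a covariate (16.9%, against 9.7%), 4 without MSC-EV replicate 3 (4.49%, against 3.37%), 3 without any 1 HEK-EV sample (3.37%, against 2.2% to 4.34%) and 2 of 97 with no filter on low values (2.06%, against 1.41%). With a replicate block 2 of 89 list genes passed against PBS, a share below that of all genes (2.25%, against 2.92%). The lists gave 0 where few of all genes passed: without PBS replicate 2 or 3 (5 and 7 of all genes), without MSC-EV replicate 1 or 2 (23 and 54), with the acinar split as a term (21) and with only the 6 samples compared (77). Against HEK-EV the lists gave 20 with depth as a covariate (22.5%, against 10.5%), 19 without PBS replicate 1 (21.3%, against 10.1%), 13 with only the 6 samples compared (14.6%, against 7.95%), 5 without MSC-EV replicate 3 (5.62%, against 4.53%), 5 with median-of-ratios scaling (5.62%, against 3.7%), 4 on FPKM (4.49%, against 3.32%) and 2 of 97 with no filter (2.06%, against 1.51%). With a replicate block 4 of 89 list genes passed against HEK-EV (4.49%, against 3.24%). The lists gave 0 without HEK-EV replicate 1, 2 or 3 (1, 0 and 31 of all genes), without MSC-EV replicate 1 or 2 (0 and 0) and within the 4 samples with acinar transcripts (219, or 1.58%). Without the 2 samples highest in these transcripts, or within the 5 samples without them, no gene of the whole table passed, so the counts of 0 there say nothing about the lists.

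Among the exchange factors of the Dbl family, 2 of 16 fell against PBS (12.5%, against 3.25% of all genes as lower). Beside Tiam1 this was Spata13 (Asef2), an exchange factor for Rac and Cdc42, at 22.2, 25.6 and 23.5 TPM in PBS, 25.9, 24.8 and 27.5 in HEK-EV and 17.8, 17.4 and 19 in MSC-EV. Its MSC-EV samples lay below all others, and it fell by 0.38 against PBS (SE 0.0744, limma adjusted p = 0.0296) and by 0.51 against HEK-EV (adjusted p = 0.0205). Prex1, an exchange factor driven by G-protein signals, fell against HEK-EV (-0.24, limma adjusted p = 0.0495). Against PBS it was at -0.18 (adjusted p = 0.109), and whether these results differ was not tested.

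Of the 13 DOCK factors and adaptors, Dock5 and Elmo2 fell against PBS (15.4%, against 3.25% of all genes as lower). Dock5, an exchange factor for Rac, went from 24.8 ± 2.25 TPM in PBS and 26.3 ± 1.49 in HEK-EV to 18.7 ± 1.95 in MSC-EV (-0.39, limma adjusted p = 0.0483 against PBS). Elmo2, which binds DOCK proteins and helps them act on Rac, went from 98.1 ± 6.19 and 95.6 ± 3.43 to 76.1 ± 3.15 TPM (-0.36, adjusted p = 0.0236). Of the 16 GAPs and GDIs, which restrain Rac, 1 passed, as lower (6.25%, against 3.25% of all genes as lower and 5.11% in either direction). This was Sh3bp1, a Rac GAP, at 109 ± 9.85 TPM in PBS, 108 ± 1.88 in HEK-EV and 89.9 ± 1.59 in MSC-EV (-0.27, limma adjusted p = 0.0487). Arhgdib, the most abundant of that list, was lower in every MSC-EV sample but missed the threshold (-0.35, interval -0.58 to -0.12, limma adjusted p = 0.0825).

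Of 15 effectors and WAVE subunits, 2 fell and 2 rose against PBS (26.7%, against 5.11% of all genes in either direction). Cyfip2, a subunit of the WAVE complex that carries Rac's signal to actin, fell from 56.5 ± 4.35 TPM in PBS to 43.4 ± 4.33 in MSC-EV (-0.37, limma adjusted p = 0.0405). Baiap2 (IRSp53), a membrane-bending adaptor, rose from 6.57 ± 0.61 to 9.94 ± 0.902 TPM (0.53, limma adjusted p = 0.0313). Iqgap2, a scaffold that binds Rac and Cdc42, rose from 67.7 ± 13.3 to 94.7 ± 6.8 TPM (0.49, limma adjusted p = 0.0463). Against HEK-EV neither rise passed (adjusted p = 0.063 and 0.0908).

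Other lists gave no call against PBS. None of 13 small GTPases, Rac1 and Rac2 among them, passed (median -0.19; Cdc42, the most abundant, -0.04 with an adjusted p of 0.725 from limma). None of 9 Arp2/3 subunits passed, though all 9 had lower means, with differences from -0.25 to -0.06 (median -0.15; Arpc2 -0.17, limma adjusted p = 0.142). None of 7 genes of the Lurap1l family, MRCK and LIMK passed (median -0.02; cofilin, Cfl1, 0.03). Lurap1 itself stayed at or under 0.254 TPM. Kalrn, Dock3, Chn1, Arhgdig, Pak3, Wasf1 and Wasf3 did not pass the filter either.

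**Figure D3:**
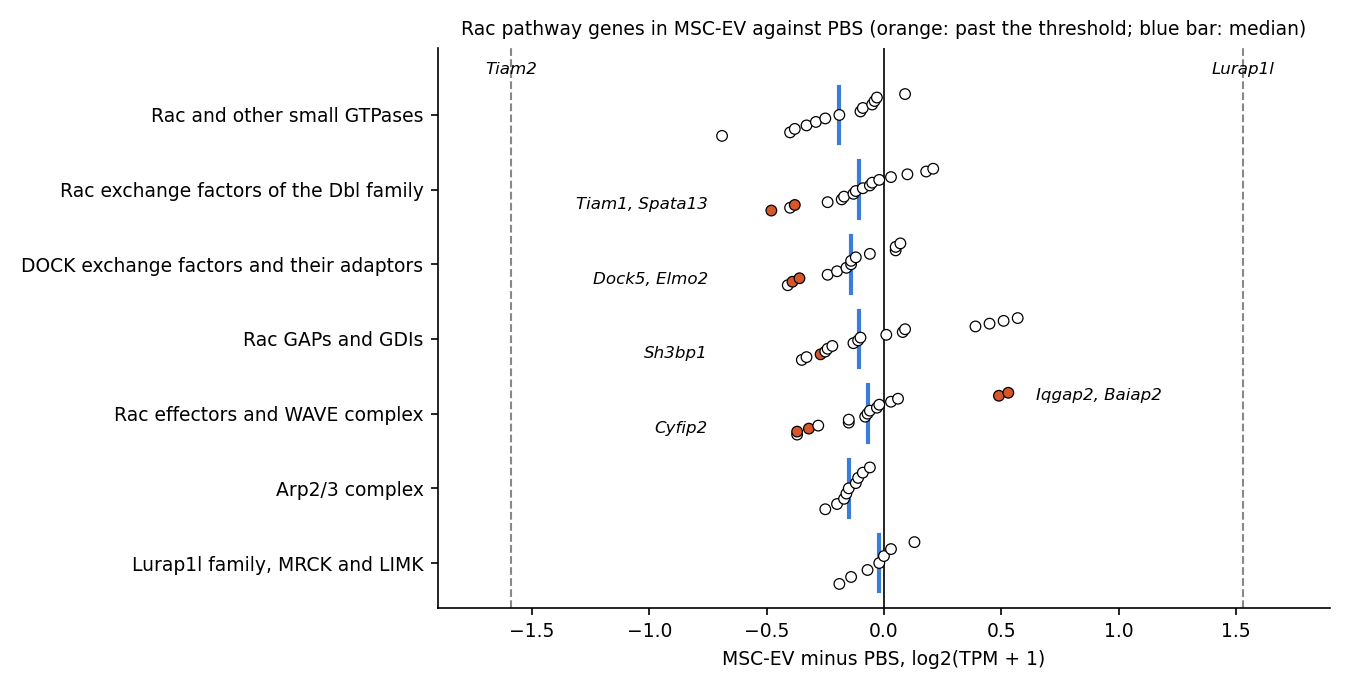
MSC-EV minus PBS difference of log2(TPM + 1) (horizontal axis) for the 89 genes of 7 Rac pathway lists (rows); orange points passed the limma threshold, white ones did not, and blue bars are list medians. The 2 dashed lines mark Tiam2 (-1.59) and Lurap1l (1.53), which were chosen on their values in this comparison. Their place outside the range of the other genes, -0.69 to 0.57, follows from that choice and is no result.

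Cell markers moved with these results. In bulk samples fewer cells of a type and less RNA per cell cannot be told apart. Itgam, which encodes the CD11b used for isolation, was at 330 ± 44.3 TPM in PBS, 372 ± 54.1 in HEK-EV and 229 ± 29.6 in MSC-EV (limma adjusted p = 0.0553 against PBS). Against HEK-EV it passed as lower, by -0.70 (limma adjusted p = 0.0257). Of 8 CD11b+ myeloid markers 2 passed as lower against PBS and 3 against HEK-EV, where 3.25% and 4.4% of all genes did. Ptprc passed in both, at -0.46 against PBS (limma adjusted p = 0.0271) and -0.53 against HEK-EV (limma adjusted p = 0.0207). The summed level of the 8 overlapped between all groups, at 24374 to 26759 TPM in PBS, 22063 to 25339 in HEK-EV and 20584 to 26268 in MSC-EV. Itgam is a small part of that sum, so the sum says little about it. Against PBS 5.11% of all genes passed in either direction, beside which the next counts stand. Of 10 Ly6C-high monocyte genes 5 fell against PBS (Ly6c2, Vcan, Chil3, Plac8 and Ms4a4c), and their summed level was 6693 to 13268 TPM in PBS, 8468 to 10785 in HEK-EV and 4156 to 5101 in MSC-EV. PBS replicate 1, the lowest PBS sample by that sum, also had the lowest Tiam2 (10.2 TPM) and Rac2 (252 TPM) of its group, but not the lowest Tiam1 (22.8 TPM, against 21.7 in replicate 3), and it had the highest Vav1 (145 TPM). Of 10 macrophage genes 3 rose, and the sum was 12127 to 13536, 14235 to 15674 and 20867 to 23723 TPM. Neutrophil genes had 1 of 10 higher (sums of 3109 to 5725, 5117 to 7021 and 3012 to 3822 TPM). No endothelial or Kupffer cell gene of 8 each passed, but the sums were below PBS in every MSC-EV sample: 227 to 277, 147 to 326 and 91.4 to 178 TPM for endothelial cells, and 2775 to 3341, 1879 to 3892 and 1547 to 2725 TPM for Kupffer cells. Mitochondrial genes took 7.55% to 7.9% of TPM in MSC-EV and 5.44% to 6.48% in the other groups, and the 100 most abundant genes took 31.6% to 33.3% and 28.8% to 30.5%. The part of these shares, and of monocytes and the other cell types, in the values of Tiam2, Tiam1, Rac2 and the pathway genes was not tested.

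Lurap1l was higher beside bile duct and hepatocyte genes. Of the 7 of 8 biliary genes tested, 4 passed as higher against PBS, where 5.11% of all genes passed, among them Krt19 (log2 1.54), Epcam (1.17) and Sox9 (0.72). Of these 4, Sox9 and 1 more gene were under 1 TPM in all PBS samples and met the filter on low values only through MSC-EV, where they are high, so the count is a description. The sum of the list is held almost whole by Spp1, which macrophages also make, so it was also taken without it: 8.81 to 11.4 TPM in PBS, 11.6 to 14.1 in HEK-EV and 17.4 to 25.9 in MSC-EV. The 9 samples ranked in the same order by that sum as by Lurap1l. With Spp1 it was 741 to 1711, 895 to 1186 and 1775 to 2362 TPM. Of 10 hepatocyte genes 3 rose, and their sum was 421 to 502, 349 to 533 and 703 to 809 TPM in the same order. Cftr was under 1 TPM in all samples. The part of bile duct or liver cells in the level of Lurap1l was not tested.

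**Figure D4:**
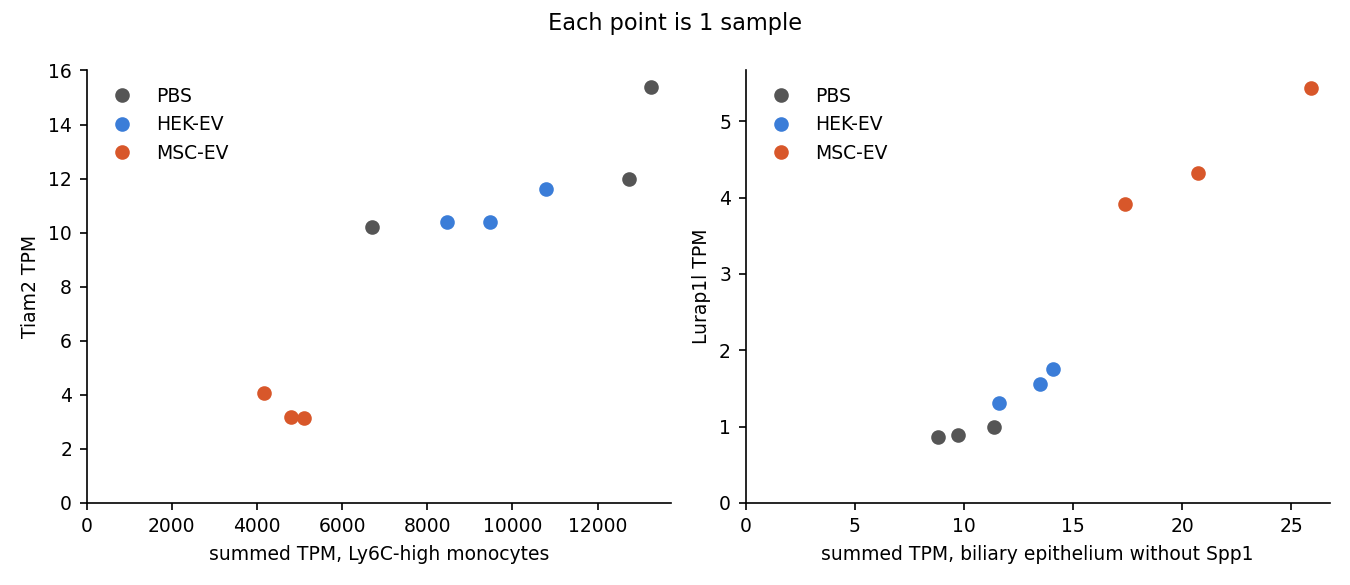
Left, Tiam2 (TPM) against the summed level of 10 Ly6C-high monocyte genes; right, Lurap1l (TPM) against the summed level of biliary genes without Spp1 (TPM); each dot is 1 of 9 samples (grey PBS, blue HEK-EV, orange MSC-EV). MSC-EV samples are lowest on both axes at left and highest on both at right.

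The genes most like Tiam2 over the 9 samples, by Pearson r of log2(TPM + 1) among 9594 genes with a mean of at least 5 TPM, were Ltb4r1, a leukotriene receptor (r = 0.97), Vcl, an adhesion protein (0.97), Osgin2 (0.97), Spi1, the myeloid factor PU.1 (0.96), and Rasgrp2, an exchange factor for Rap (0.96). Ltb4r1 was at 38.6 ± 7.91 TPM in PBS and 18.4 ± 1.61 in MSC-EV, and Vcl at 41.6 ± 5.38 and 23 ± 1.42. The points share their groups, so a gene that differs in MSC-EV scores high. For the other members r with Tiam2 was 0.90 (Rac1), 0.88 (Rac2), 0.82 (Tiam1), 0.70 (Vav1), 0.65 (Dock2), 0.51 (Vav3) and -0.95 (Lurap1l). For deviations from the group means the highest r were with Mrgpra2a and Mir7678 (0.96 each), S100a9 (0.95), Cdc42ep2 (0.95) and B4galt3 (0.94), none of them among those 5.

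The genes most like Lurap1l, among 9595, were Tm4sf4 (0.99), Spint2, an epithelial protease inhibitor (0.99), Clu (0.98), Ambp, a plasma protein precursor made by hepatocytes (0.96), and Ces1d, a liver carboxylesterase (0.95). Spint2 was at 4.74 ± 0.267 TPM in PBS, 5.63 ± 0.207 in HEK-EV and 8.05 ± 0.36 in MSC-EV, and Ambp at 9.39 ± 0.315, 10.6 ± 2.91 and 24 ± 3.22. By deviations from group means they were Fmc1 (0.99), Siva1 (0.97), Def6 (0.96), Slc39a7 (0.95) and Dnajb2 (0.93), again other genes. The limit given for Tiam2 holds for these r too.

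Of the genes overlapping Tiam2, Gm52295 and Gm49221 were at 0 TPM in every sample. Tfb1m, on the other strand, shares 148 bases with the end of Tiam2. The level of Tfb1m was 8.99 ± 0.918, 10 ± 0.954 and 9.86 ± 0.193 TPM in PBS, HEK-EV and MSC-EV (SD, n = 3 each), with all groups overlapping. No annotated gene overlapped Lurap1l.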

How the data were processed

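Bulk RNA sequencing of 9 samples of CD11b+ liver cells was used, 3 per group by the treatment in the labels. TPM, FPKM and coverage signal per gene are as deposited by the authors, per the file headers. The aligner HISAT2 2.1.0, StringTie and build mm10 come from the submitters' processing notes; annotation and strand use are not given in the sources used here. Libraries were made with a stranded kit, per the labels' protocols. IDs were matched to the RefSeq table of GRCm38.p6 (45679 of 45777 had a symbol, 99.79%; positions equal for 96.37%), rows of a gene were summed, and coordinates are the files' own. Depth in reads is unknown, and no interval that needs counts was made. Coverage divided by FPKM, at its most frequent value per sample, was taken as a measure that grows with sequencing depth. This measure was 5.28 to 6.32 in PBS, 6.25 to 6.47 in HEK-EV and 6.58 to 6.84 in MSC-EV. Only 34.08% to 35.17% of genes above 1 FPKM in a sample lay within 0.5% of its value.

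The 13820 genes that reached 1 TPM in 3 or more samples were fitted as log2(TPM + 1) with limma 3.58.1 in R 4.3.3 (trend, all 9 samples, no covariate), two-sided, with Benjamini-Hochberg adjustment over all genes tested and a threshold of 0.05. Python 3.11.15, numpy 2.4.6, pandas 2.3.3 and matplotlib 3.10.9 did the rest. An exact permutation test of 3 against 3 cannot go under 0.1, so none was made. P-values measure the spread between these samples, since nothing says they came from separate animals. The fit was tested on simulated data, but no result of that is given here. Named were the 8 genes, the pathway genes past the threshold in a comparison with MSC-EV, the most abundant gene of each list, overlapping genes, the next genes by p, and the 5 genes most alike each of Tiam2 and Lurap1l. Some genes that passed are counted but not reported here by name. Marker genes and Klf4 were named after their values were seen. The members and lists were chosen with earlier results of these data known. Results were refitted with a pseudocount of 0.1, without a filter, at 5 TPM as the minimum, on FPKM, with median-of-ratios scaling, on only the 6 samples compared, with a replicate block, the acinar split (sum above 10 TPM) as a term, depth as a covariate, with each sample left out, and, added after seeing the data, with the 2 samples highest in acinar transcripts left out and within each side of the acinar split. The numbers of the samples do not pair them: 0 of 9 same-number pairs had a correlation of deviations over 0.1.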

Additional observations from a re-analysis of the deposited data

How the results depend on the processing

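Tiam2 stayed lower and Lurap1l higher in MSC-EV against PBS in every alternative run (20 and 19): from -1.88 (depth as a covariate) to -1.30 (FPKM), and from 1.07 (FPKM) to 2.19 (pseudocount 0.1). Lurap1l drops out at a minimum of 5 TPM. Both genes were chosen on their values in this comparison, so the kept direction is a description and no support for it. The number of genes called also differed between fits. Calls of Tiam1, Rac2 and the pathway lists changed too, but not always in step with that number. With depth as a covariate 1340 genes passed against PBS, while Tiam1 lost its call (limma adjusted p = 0.17). The cause was not tested. For MSC-EV against PBS, 706 genes became 361 with no filter, 77 with only the 6 samples compared, 404 with a replicate block, 21 with the acinar split as a term, 1340 with depth as a covariate, 0 (limma; 2711 at an unadjusted p under 0.05) without the 2 samples highest in acinar transcripts, 0 (1615 unadjusted) within the 5 samples without acinar transcripts, and 5 to 1881 with 1 sample left out. For MSC-EV against HEK-EV, 817 became 387 with no filter, 459 on FPKM, 512 with median-of-ratios scaling, 448 with a replicate block, 1446 with depth, 0 (2874 unadjusted) without the 2 acinar-highest samples, 219 within the 4 samples with acinar transcripts, 0 (1567 unadjusted) within the other 5, and 0 to 1384 with 1 sample left out. For HEK-EV against PBS, 0 became 4 with no filter and 0 to 2 with 1 sample left out. The replicate block left 2 pathway genes called against PBS (2.25%, against 2.92% of all genes) and 4 against HEK-EV (4.49%, against 3.24%). Of the samples, 0 correlated best with their own number. Depth as a covariate moved the median of all genes to 0.10 against PBS. Every MSC-EV sample was above all others in that measure, so depth and group cannot be told apart well there.

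Small uncalled differences of HEK-EV minus PBS changed sign. Rac1 was -0.02 on FPKM, -0.03 with median-of-ratios, -0.01 with the acinar term, -0.02 with depth, -0.02 within the 5 samples without acinar transcripts and -0.02 to 0.02 with 1 sample left out. Rac2 was -0.11 with depth and -0.05 to 0.16 with 1 left out. Vav3 was -0.00 with median-of-ratios and -0.00 to 0.06 with 1 left out. Dock2 was -0.01 on FPKM, -0.02 with median-of-ratios, -0.01 with the acinar term and -0.04 to 0.05 with 1 left out. Depth in reads is unknown, which limits what low levels such as those of Lurap1l in PBS can show.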
